A study of Mus musculus with 46 samples.

Results

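The mouse genes for alpha-1-antitrypsin and for related plasma serpins of clade A were followed through every group of a study of the long noncoding RNA Falcor. The genes are Serpina1a, Serpina1b, Serpina1c, Serpina1d, Serpina1e, Serpina6, Serpina7 and Serpina10, which are 8 of the 55774 genes listed, and they were taken by name. They were chosen by family and with levels and fold changes from an earlier look at these data in view, and no value or threshold is recorded as the criterion. The fold changes and adjusted p-values below therefore describe these genes and are no evidence about the family as a class. Because Serpina1a to Serpina1e are near-identical copies, their 5 rows were also summed in each library and the sum was tested in their place.

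RNA from 46 libraries in 13 groups was sequenced, 27 from AML12 cells and 19 from liver. AML12 is an established, non-tumorigenic mouse hepatocyte line. The inducible lines carried a hairpin labelled shLinc, which the labels file under Falcor, or a control hairpin labelled shCtrl, each in the states NoDox, Dox and Restored (3 libraries a group). Dox is the name used here for the state titled DoxPlus. Restored is the name for that titled DoxMinus, taken as the state after doxycycline withdrawal. The conventional hairpins were shFalcor and shZC3H11A, against shCtrl (3 libraries a group). The livers came from Falcor KO mice and Ctrl mice on the diet labelled NCD (4 KO, 4 Ctrl) or HFD (6 KO, 5 Ctrl). The labels give neither the kind of knockout allele nor strain, age, sex, pooling of animals, diet content, doxycycline dose, or whether a line was 1 clone. Nothing in them ties a replicate to its own culture or animal, and the p-values then reflect library-to-library spread alone, which may be technical.

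Serpins are secreted or cellular proteins that mostly inhibit serine proteases. A protease cleaves an exposed stretch, the reactive centre loop, and the serpin then changes shape and traps it. Alpha-1-antitrypsin is made mainly by hepatocytes and protects tissue from neutrophil elastase. Humans have 1 gene for it, and mice have several copies that differ most in the loop. Serpina6 encodes corticosteroid-binding globulin and Serpina7 encodes thyroxine-binding globulin, both of which carry hormones in plasma and inhibit no protease. Serpina10 encodes the protein Z-dependent protease inhibitor, which inhibits coagulation factor X in its active form.

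On mm10, 7 of the 8 genes lie on the minus strand of chromosome 12 within 344190 bp. Serpina10 is at chr12:103614786-103631444 and Serpina6 at chr12:103646630-103657212. The 5 alpha-1-antitrypsin copies span 230820 bp, with Serpina1b at chr12:103728156-103830373, Serpina1d inside it at chr12:103763594-103773592, Serpina1a at chr12:103853589-103863562, Serpina1c at chr12:103894926-103904887 and Serpina1e at chr12:103946931-103958975. Serpina7 is apart, at chrX:139079257-139085236. All are protein-coding in the GENCODE M21 annotation.

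The copies are alike enough that the split of reads among them is uncertain. Between pairs, the coding sequences were 96.3 to 98.5% identical, and Serpina1a and Serpina1c were the closest pair with 19 differing bases of 1239. Of all 31-base words in its annotated transcripts, 17.8% for Serpina1c, 34.8% for Serpina1a, 35.3% for Serpina1d, 45.8% for Serpina1e and 55.3% for Serpina1b occurred in no other gene. Of the 1239 coding positions compared, 86 (6.9%) differed among the 5 copies. The 60-base window with the most of them, 18, lies in the stretch that encodes the reactive centre loop. It is printed because it is where the copies are easiest to tell apart, in the coding direction from GENCODE M21 transcripts, with the positions that differ among the copies in capitals. It covers coding bases 1101 to 1160, or 1170 to 1229 in Serpina1a, whose longest annotated coding sequence starts further upstream.
Serpina1a: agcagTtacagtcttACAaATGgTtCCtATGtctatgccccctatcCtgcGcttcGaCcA
Serpina1b: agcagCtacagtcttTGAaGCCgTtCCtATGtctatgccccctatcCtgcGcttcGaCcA
Serpina1c: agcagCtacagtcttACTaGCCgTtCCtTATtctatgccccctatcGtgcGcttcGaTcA
Serpina1d: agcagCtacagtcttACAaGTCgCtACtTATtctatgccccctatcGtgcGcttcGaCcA
Serpina1e: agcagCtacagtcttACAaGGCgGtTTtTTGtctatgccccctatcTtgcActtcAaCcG

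The promoters of the copies are also near-identical in the 75-base stretch printed below. Identity over the whole promoter windows was not measured. RefSeq promoter windows on GRCm38.p6 were matched for 6 of the 8 genes, and the windows of the 5 copies were searched because Serpina1a and Serpina1b changed in the same direction in every comparison that called both. Both strands of 32851 promoters of the same length were searched for the letters GTTAAT, which is part of the site of the hepatocyte factor HNF1, and for TGTTTGC, which resembles forkhead (FOXA) sites. GTTAAT was found in 6 of the 6 windows, against 7.1% of all promoters. Since the 5 Serpina1 windows share the near-identical stretch that holds these letters, these are not 6 independent sequences. TGTTTGC was found in the 5 Serpina1 windows and not in that of Serpina7, against 5.07% of all promoters. The full HNF1 palindrome, which is GTTAAT, any base and then ATTAAC (0.01% of all promoters), was in none of the 6, nor were TGTTTAC (3.65%) and CAAAGTCCA (0.47%). The TATA box letters TATAAA (13.62%), also searched, were in the window of Serpina7 alone. A 75-base stretch upstream of each RefSeq start is printed, because the results compare these copies. The stretches run 5′ to 3′ on the minus strand, with both motifs in capitals, at chr12:103863626-103863700 for Serpina1a, chr12:103738201-103738275 for Serpina1b, chr12:103904963-103905037 for Serpina1c, chr12:103773635-103773709 for Serpina1d and chr12:103956961-103957035 for Serpina1e.
Serpina1a: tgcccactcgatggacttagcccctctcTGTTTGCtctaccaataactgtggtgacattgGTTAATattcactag
Serpina1b: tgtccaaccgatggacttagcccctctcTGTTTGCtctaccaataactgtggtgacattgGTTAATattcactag
Serpina1c: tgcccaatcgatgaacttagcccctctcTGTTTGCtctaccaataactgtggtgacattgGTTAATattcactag
Serpina1d: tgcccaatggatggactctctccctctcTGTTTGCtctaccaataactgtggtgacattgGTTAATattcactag
Serpina1e: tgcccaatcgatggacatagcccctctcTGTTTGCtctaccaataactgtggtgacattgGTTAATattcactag

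The conventional hairpins were deposited as counts, 4474760 to 8837581 per library. The other 3 tables hold whole numbers whose columns sum to nearly the same total. Their unit is not given in the sources used here, so they are called deposited values and their depth is unknown. Falcor, the gene symbol of which is 9030622O22Rik, was listed at 0 in all KO livers, against 70 to 135 in NCD Ctrl and 17 to 27 in HFD Ctrl livers. Its log2 fold change against shCtrl was -2.07 ± 0.51 under shFalcor (SE, adjusted p = 0.00242, edgeR's quasi-likelihood test) and -2.17 ± 0.52 under shZC3H11A, and that of Zc3h11a was -0.75 ± 0.24 under shFalcor (adjusted p = 0.0243) and -3.03 ± 0.29 under shZC3H11A. Each hairpin thus came with lower RNA of both targets. In the inducible lines Falcor was 2 to 3 in shLinc Dox libraries and 4 to 5 in shCtrl Dox libraries, whereas it was higher in shLinc than in shCtrl cells without doxycycline (9 to 12, against 4 to 6) and in the Restored state (9 to 11, against 4 to 5). AML12 cells carried only part of the hepatocyte programme: of 12 hepatocyte markers, Apoa2, Fgb and Cyp3a11 were at 0 in every library, while 4 of 5 cholangiocyte markers were detected in every library. The livers had all 12 hepatocyte markers. HFD KO replicate 6 stood apart, with a TMM scale factor of 0.438 against 0.881 to 1.40 in the other HFD livers, and 3 rows of identical values held 78.2% of its column. The same 3 rows held at least 22.4% of every HFD column.

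Alpha-1-antitrypsin fell under the conventional Falcor hairpin and rose under the ZC3H11A hairpin. Serpina1a had 14, 8 and 15 counts in shFalcor libraries, 1062, 674 and 1447 counts in shZC3H11A libraries, and 300, 267 and 229 counts in shCtrl libraries. The 3 groups did not overlap: every shFalcor library was below every control library, and every shZC3H11A library was above them. Adjusted for library size and expressed as CPM, these were 1.87 ± 0.36 in shFalcor cells, 187 ± 66.2 in shZC3H11A cells and 40.1 ± 6.98 in shCtrl cells (SD, n = 3 each). Against shCtrl, the log2 fold change was -4.41 ± 0.45 under shFalcor (SE, adjusted p = 0.000118, edgeR's quasi-likelihood test), or 21.3-fold lower. Under shZC3H11A it was 2.23 ± 0.26 (adjusted p = 0.000269, same test), or 4.69-fold higher.

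Serpina1b followed the same order. It had 4, 0 and 6 counts in shFalcor libraries, 288, 199 and 376 in shZC3H11A libraries, and 121, 90 and 81 in shCtrl libraries. The log2 fold change against shCtrl was -4.81 ± 0.41 under shFalcor (adjusted p = 1.92e-07, edgeR's quasi-likelihood test) and 1.81 ± 0.22 under shZC3H11A (adjusted p = 7.35e-06). Set directly against shZC3H11A, shFalcor gave -6.64 ± 0.40 for Serpina1a and -6.62 ± 0.36 for Serpina1b, differences of 99.7-fold and 98.3-fold.

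The other copies were at or near the detection limit in AML12 cells. Serpina1c had 0, 3 and 6 counts in shFalcor libraries, 9, 18 and 21 in shZC3H11A libraries and 0 in each shCtrl library. Serpina1d had 2, 0 and 4 counts in shZC3H11A libraries and 0 in all others. Serpina1e had 0 in all 9 libraries, which allows up to 3 counts in a library, or 0.339 to 0.67 CPM (counting error only). None of these 3 copies passed the filter on low counts. The summed copies had 18, 11 and 27 counts in shFalcor libraries, 1361, 891 and 1848 in shZC3H11A libraries, and 421, 357 and 310 in shCtrl libraries. The log2 fold change of the sum was -4.27 ± 0.41 under shFalcor (adjusted p = 9.97e-05) and 2.15 ± 0.25 under shZC3H11A (adjusted p = 0.000296), so both differences held whichever copy the reads were given to.

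Of the hormone carriers, Serpina7 was measurable in AML12 cells and moved the other way under shFalcor. It had 35, 26 and 48 counts in shFalcor libraries, 9, 5 and 6 in shZC3H11A libraries, and 29, 12 and 9 in shCtrl libraries. At a common library size the 3 shFalcor libraries held 5.27 to 5.70 CPM, above the 1.48 to 3.36 CPM of the shCtrl libraries. Serpina7 rose by 1.19 ± 0.36 on the log2 scale under shFalcor (adjusted p = 0.0106, edgeR's quasi-likelihood test). Under shZC3H11A the value was -1.03 ± 0.43 and missed the threshold (adjusted p = 0.0581), although it passed without shCtrl replicate 3 (-1.26, adjusted p = 0.0262). Serpina6 had 1 count in 1 shCtrl library and 0 elsewhere. Serpina10 had 1, 10 and 4 counts in shFalcor libraries, 4, 5 and 5 in shZC3H11A libraries, and 7, 5 and 4 in shCtrl libraries, too few to be tested.

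**Figure D1:**
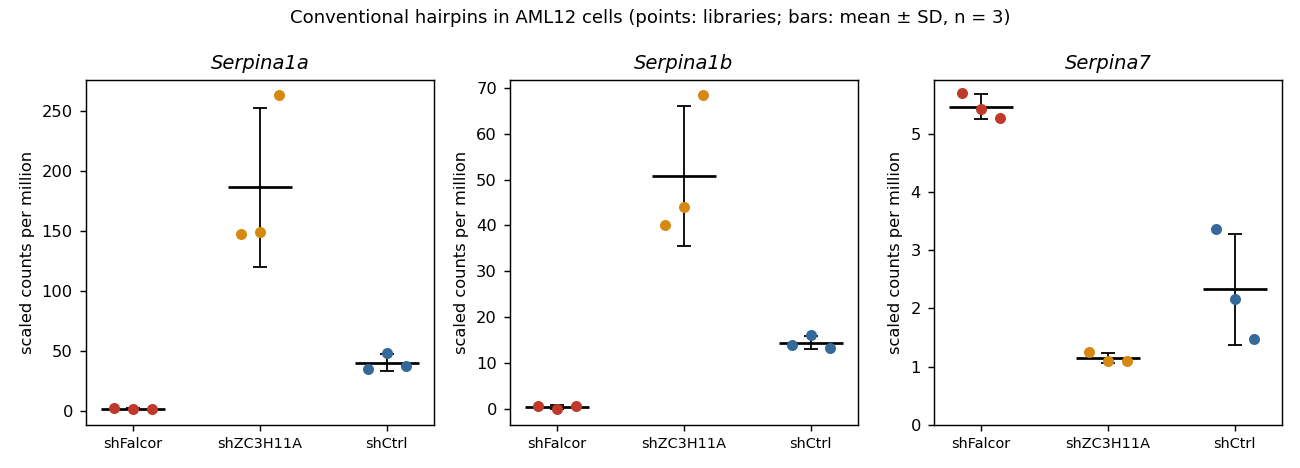
Scaled CPM (vertical axes, linear, each gene on its own scale) of Serpina1a, Serpina1b and Serpina7 in AML12 libraries with the shFalcor, shZC3H11A and shCtrl hairpins. Points are libraries and bars are mean ± SD (n = 3). The shFalcor libraries lie lowest for both Serpina1 copies and highest for Serpina7.

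By count, 3 of the 8 genes were tested and 3 were called (adjusted p below 0.05) under shFalcor, 1 higher and 2 lower, while 51.5% of the 11871 genes tested were called (25.5% higher and 26% lower). Under shZC3H11A 2 were called, both higher, against 48.5% of all genes (24.2% higher). Between shFalcor and shZC3H11A 3 were called, 1 higher and 2 lower, against 56.9% (28.4% higher and 28.6% lower). With so many genes called, the number of serpins called says little. Both knockdowns were set against the same 3 shCtrl libraries.

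Genes that act with these serpins were read from 6 lists. Of 19 hepatocyte transcription factors of serpin promoters, 18 were tested under shFalcor. Of these, 1 rose and 11 fell, with a median log2 fold change of -0.62 against 0.00 for all genes. Foxa2, a forkhead factor, fell by 1.48 on the log2 scale, Hnf4a, a nuclear receptor that maintains hepatocyte identity, fell by 1.07, Prox1 fell by 0.93, and Cebpb, a factor of the acute-phase response, fell by 0.78. Under shZC3H11A 2 of the 18 rose and 8 fell (median -0.37), and Hnf4a rose by 0.68 while Stat3, the transducer of IL-6 signals, fell by 1.29.

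In the list of folding, export and disposal genes, all 22 were tested under shFalcor, and 5 rose and 12 fell (median -0.34). Sar1b, a GTPase of the vesicle coat that carries cargo from the endoplasmic reticulum, fell by 1.81 on the log2 scale, Surf4, a cargo receptor, fell by 1.28, and the chaperone Calr fell by 0.86, whereas Ganab, a glucosidase subunit of glycoprotein folding, rose by 0.84. Under shZC3H11A 10 rose and 7 fell (median 0.04), among them Mcfd2, which works with the cargo receptor Lman1, with a log2 fold change of 2.42, Sec23a with 2.31 and Sec24a with 0.75. Sec23a and Sec24a are subunits of the same vesicle coat.

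Among 16 hormone carriers and response genes, 11 were tested under shFalcor, and 2 rose and 7 fell (median -1.27). Ttr, another thyroxine carrier, fell by 5.29 on the log2 scale, Sgk1 by 2.62, Alb by 2.35, Tsc22d3 by 1.51 and Fkbp5 by 1.27. Sgk1, Tsc22d3 and Fkbp5 are known glucocorticoid-induced genes. Under shZC3H11A 3 of the 11 rose and 4 fell (median -0.16), with Sgk1 at 0.75, Sult1a1 at 2.25, Tsc22d3 at -1.09 and Alb at -1.30. Of the other clade A serpins, 1 of 18 was tested, Serpina3n, an acute-phase gene, which rose under shFalcor (1.31 ± 0.34, adjusted p = 0.0036, edgeR's quasi-likelihood test) and had -0.78 under shZC3H11A. Of 14 liver serpins of other clades, 6 were tested, and 2 rose and 3 fell under shFalcor, while 3 rose and 2 fell under shZC3H11A. Among them was Serpine2 at 1.38 under shFalcor and 1.18 under shZC3H11A. Of 10 proteases and partners, 3 were tested. Under shFalcor Lrp1, the receptor that clears serpin and protease complexes, had 1.42 and the protein C gene Proc had -1.10, and under shZC3H11A Proc had -0.92. The summed hepatocyte markers were 338 to 731 counts in shFalcor, 1413 to 2058 in shZC3H11A and 1754 to 2622 in shCtrl libraries. These sums are not adjusted for library size, which ran from 4474760 to 8837581 counts. The markers moved with the Serpina1 copies under shFalcor but not under shZC3H11A, and their part in the result was not tested. In bulk RNA, fewer cells of a type and less RNA per cell cannot be told apart.

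In the inducible lines alpha-1-antitrypsin was low, and the sign of its hairpin difference turned between states. Serpina1a was 3, 3 and 4 in shLinc NoDox libraries and 6 in each shCtrl NoDox library. With doxycycline it was 3, 4 and 3 in shLinc and 5, 7 and 7 in shCtrl libraries. In the Restored state it was 25, 25 and 24 in shLinc libraries and 12, 13 and 10 in shCtrl libraries. No pair of lines overlapped in any state: shLinc was below shCtrl in NoDox and Dox and above it in Restored.

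On the log2(value + 1) scale, which understates changes of low values, the shLinc minus shCtrl difference of Serpina1a was -0.85 ± 0.13 in NoDox (adjusted p = 1.89e-05, limma), -0.76 ± 0.13 in Dox (adjusted p = 0.000103) and 0.87 ± 0.13 in Restored (adjusted p = 1.7e-05). Serpina1b was 1, 2 and 1 in shLinc and 2 in each shCtrl library in NoDox, 1 in each shLinc library and 3, 2 and 2 in shCtrl libraries in Dox, and 8, 9 and 8 in shLinc and 5 in each shCtrl library in Restored. Its differences had the same signs, -0.50 ± 0.14, -0.73 ± 0.14 and 0.50 ± 0.14. At this level rounding to whole numbers can hide spread between replicates. Serpina1c was listed between 0 and 2, and the other 5 genes (Serpina1d, Serpina1e, Serpina6, Serpina7 and Serpina10) at 0 in all 18 libraries. The sum of the copies gave -0.81 ± 0.10, -0.66 ± 0.10 and 0.73 ± 0.10.

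**Figure D2:**
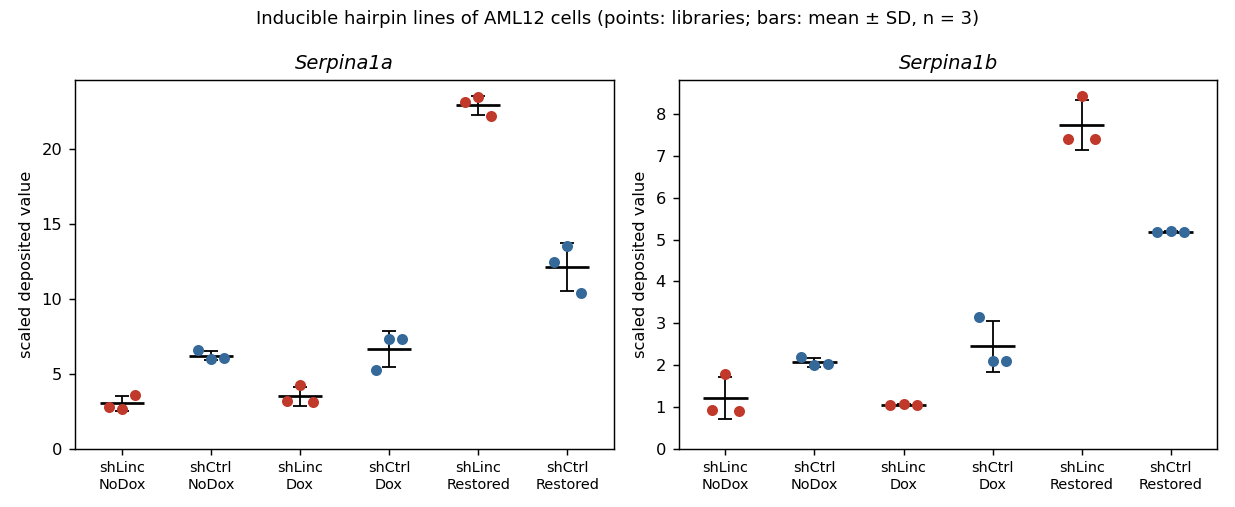
Deposited values of Serpina1a and Serpina1b divided by the TMM scale factor (vertical axes, linear) in the shLinc and shCtrl lines in the states NoDox, Dox and Restored. Points are libraries and bars are mean ± SD (n = 3). The shLinc libraries lie below shCtrl in NoDox and Dox and above it in Restored.

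Only 2 of the 8 genes, Serpina1a and Serpina1b, reached the mean value of 3 needed for a test here. Serpina1b reached it only through the Restored groups, where its scaled mean was 7.75 (shLinc) and 5.20 (shCtrl). In the NoDox and Dox groups its mean was 1.05 to 2.45. Its calls in comparisons with Restored are therefore favoured by the filter and add no support to those of Serpina1a. Serpina1a and Serpina1b were both called in NoDox, lower, while 65.3% of 9840 genes were called (35.2% lower). Both were also called in Dox, lower, against 52.5% of all genes (27% lower), and in Restored, higher, against 57.9% (25.7% higher). The difference between states was tested directly. The hairpin difference in Dox did not differ by the threshold from that in NoDox for either copy (0 of 2 called, also at an unadjusted p below 0.05, while 65% of all genes were called). For Serpina1a that change was 0.09 with a 95% interval of -0.29 to 0.47, and for Serpina1b -0.23 with an interval of -0.66 to 0.19. The hairpin difference in Dox minus that in Restored was -1.63 ± 0.18 for Serpina1a (adjusted p = 7.77e-07, limma) and -1.23 ± 0.20 for Serpina1b (adjusted p = 5.91e-05), where 60.5% of all genes were called (28.7% lower). That in Restored minus that in NoDox was 1.72 ± 0.18 for Serpina1a (adjusted p = 2.82e-06) and 1.00 ± 0.20 for Serpina1b (adjusted p = 0.00197), where 19.9% of all genes were called (11.1% higher).

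Within a line, adding doxycycline made little difference to the copies and the Restored state stood out. In Dox against NoDox neither copy was called in shLinc or in shCtrl cells (0 of 2 each, also unadjusted), although 74.2% and 66.5% of all genes were. The interval of the change in Serpina1a was -0.11 to 0.43 in shLinc and -0.20 to 0.34 in shCtrl. The sum of the copies was called in shLinc (0.27 ± 0.10, adjusted p = 0.0209, limma), but not without scaling between libraries (0.09, adjusted p = 0.455), without shLinc NoDox replicate 1 (0.16, adjusted p = 0.146) or without shLinc Dox replicate 3 (0.20, adjusted p = 0.108). In Restored against Dox, Serpina1a rose by 2.42 ± 0.13 in shLinc and by 0.79 ± 0.13 in shCtrl cells, and Serpina1b by 2.09 ± 0.14 and 0.86 ± 0.14. Both copies were called in each line, higher, where 72.2% (shLinc, 34.1% higher) and 73.8% (shCtrl, 39.6% higher) of all genes were. In Restored against NoDox, Serpina1a rose by 2.58 ± 0.13 in shLinc and 0.86 ± 0.13 in shCtrl cells, and Serpina1b by 2.01 ± 0.14 and 1.01 ± 0.14, with 52.4% (28.6% higher) and 49.9% (27.2% higher) of all genes called.

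Ordered by level, Serpina1a was highest in shLinc Restored (22.9 ± 0.64 scaled deposited value, SD, n = 3) and next in shCtrl Restored (12.1 ± 1.62). Then came shCtrl Dox (6.64 ± 1.20) and shCtrl NoDox (6.21 ± 0.31), which did not differ beyond their spread. At the low end were shLinc Dox (3.51 ± 0.63) and shLinc NoDox (3.02 ± 0.52), which also did not. The genes whose log2 values were most like the summed Serpina1 copies over the 18 libraries were Tbc1d20 (Pearson r = 0.94), Agfg2 (r = 0.91), Vps37c (r = 0.91), Smtnl2 (r = 0.89) and Ap5b1 (r = 0.89). These libraries form 6 groups of 3, so the likeness is mostly one of group levels.

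The transcription factor and secretion lists were read in each state, where 65.3% (NoDox), 52.5% (Dox) and 57.9% (Restored) of all genes were called. Their part in the serpin result was not tested. Of 18 genes of the transcription factor list tested, 12 were higher and 2 lower in shLinc than in shCtrl cells in NoDox (median 0.34 against -0.02 for all genes), where Serpina1a was lower. In Dox 4 were higher and 4 lower, including Il6ra, the IL-6 receptor subunit of that list, at -0.73, Onecut2 at -1.07 and Foxa1 at 0.77. In Restored 11 were higher and 2 lower, including Foxa1 at 1.01 and Foxa3 at 0.76. Of the 22 secretion genes, 9 were higher and 3 lower in NoDox, 7 and 9 in Dox, and 7 and 4 in Restored. Among the other serpins, Agt, the angiotensinogen gene, listed here beside serpins of other clades although it belongs to clade A, was higher in shLinc in each state (log2 differences of 1.29, 1.24 and 2.86). Serpina3g was the only other listed Serpina gene tested, with 1.87 in NoDox, 0.34 (not called) in Dox and 0.82 in Restored. The summed hepatocyte markers, as deposited and before scaling, were 1264 to 1346 in shLinc and 518 to 528 in shCtrl libraries in NoDox. They were 420 to 434 and 698 to 719 in Dox, and 1467 to 1489 and 601 to 615 in Restored. They followed the direction of Serpina1a in Dox and Restored but not in NoDox, and their part in the result was not tested.

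In liver the copies took 2 different profiles, which were unevenly spread over the diets and did not follow genotype. In 8 of the 19 livers Serpina1e held 0.097 to 0.199% of the summed Serpina1 value, Serpina1d 1.1 to 1.57%, Serpina1c 7.92 to 9.44%, Serpina1b 36.1 to 43.9% and Serpina1a 46.2 to 54.6%. In the other 11 livers Serpina1e held 5.91 to 30.2%, Serpina1d 7.41 to 16.0%, Serpina1c 22.6 to 31.7%, Serpina1b 18.0 to 27.4% and Serpina1a 14.9 to 21.6%. No liver lay between the ranges for any copy. The profile low in Serpina1e was that of 6 NCD and 2 HFD livers, and the other that of 2 NCD and 9 HFD livers. Each diet has its own table, so diet and table cannot be told apart here. These shares use the deposited values as they stand.

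Serpina1e shows the split most plainly. On NCD it was 6, 9, 10 and 2574 in KO livers, and 3612, 14, 11 and 13 in Ctrl livers. The high liver was KO replicate 4 in one group and the column Ctrl-2 in the other. On HFD it was 2524, 3405, 2518, 1901, 6 and 2 in KO livers, and 441, 2111, 2946, 1075 and 1739 in Ctrl livers, so that KO replicates 5 and 6 were low and all others high. Each diet and genotype but HFD Ctrl thus held livers of both profiles.

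Serpina1c and Serpina1d followed it. Serpina1c was 489, 570, 634 and 4659 in NCD KO livers, and 3421, 655, 686 and 707 in NCD Ctrl livers. Serpina1d was 81, 96, 99 and 1573 in NCD KO livers, and 1010, 92, 87 and 122 in NCD Ctrl livers. On HFD Serpina1c ranged from 142 to 3558 (median 1940) in KO and 1630 to 4477 in Ctrl livers, and Serpina1d from 18 to 1289 (median 637) in KO and 555 to 1758 in Ctrl livers, with KO replicates 5 and 6 lowest for both. Of 4057 other genes with a mean of at least 5 in both liver tables, 139 of them on chromosome 12, Serpina1c and Serpina1d were the only ones whose log2 values had an r of at least 0.9 in size and the same sign with Serpina1e in both tables. That search was made after the profiles were seen, and since the livers fall into clusters the r describes the split only. Serpina1a and Serpina1b varied far less. On NCD Serpina1a was 3367, 3505, 4197 and 3387 in KO livers, and 2741, 3609, 3703 and 4109 in Ctrl livers. Serpina1b was 2228, 2494, 2808 and 3523 in KO livers, and 2848, 2657, 2843 and 2841 in Ctrl livers. After scaling, the 2 livers high in Serpina1e (KO replicate 4 and the column Ctrl-2) were the lowest for Serpina1a, at 3051 and 3119 against 3356 to 4305 in the other 6, and the highest for Serpina1b, at 3174 and 3241 against 2221 to 3030. On HFD, KO replicates 5 and 6, low in Serpina1e, were the highest for Serpina1a, at 1771 and 1728 against 1260 to 1601 in the others, while for Serpina1b they lay within the range of the others.

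**Figure D3:**
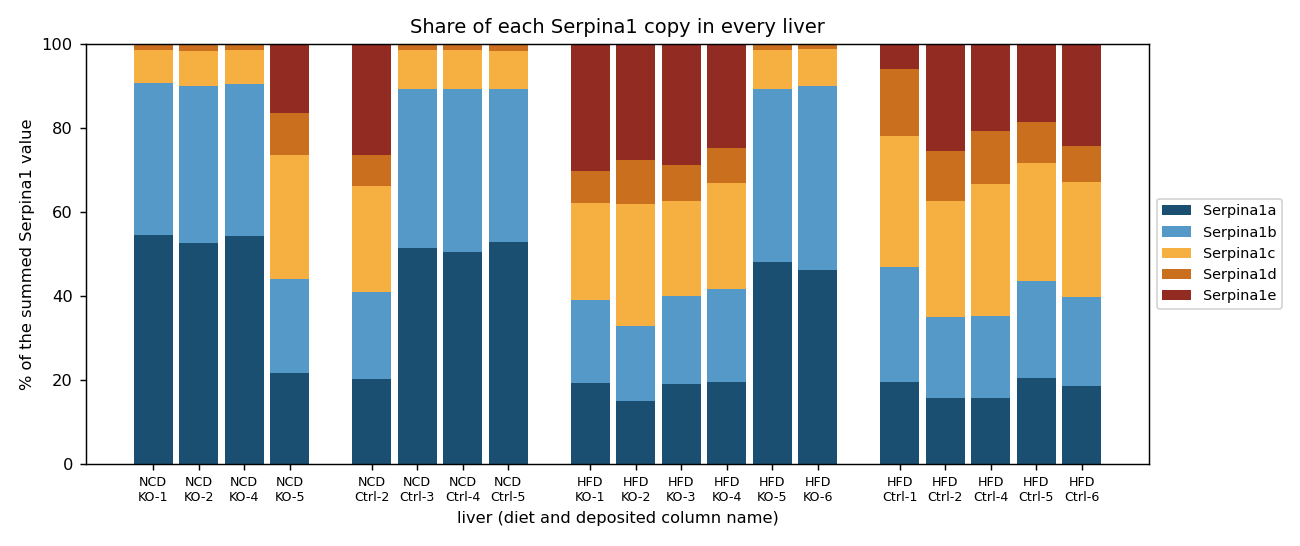
Share of each Serpina1 copy in the summed Serpina1 value (vertical axis, percent) in all 19 livers, KO livers left of Ctrl livers within each diet and named by diet and column. Serpina1e takes 0.097 to 0.199% in 8 livers, in which Serpina1a and Serpina1b make up most of the sum, and 5.91 to 30.2% in the other 11.

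The knockout difference of alpha-1-antitrypsin was not called on either diet. On NCD the sum was 6171, 6674, 7748 and 15716 in KO livers, and 13632, 7027, 7330 and 7792 in Ctrl livers, and the groups overlapped. Its log2 fold change was -0.22 ± 0.33 (adjusted p = 0.678, limma) with a 95% interval of -0.99 to 0.54, and it came to 0.03 without the column Ctrl-2 and -0.52 without KO replicate 4, so its sign rests on 1 liver. For Serpina1a the interval was -0.42 to 0.11 and for Serpina1b -0.51 to 0.05. For Serpina1e it was -6.43 to 4.97, so a difference of many-fold in either direction would not be detectable. On HFD the sum was 1637 to 12296 (median 8007) in KO livers and 5767 to 14143 (median 7462) in Ctrl livers, with a log2 fold change of -0.34 ± 0.28 (adjusted p = 0.65), or -0.19 without KO replicate 6. The interval was -0.08 to 0.36 for Serpina1a and -0.32 to 0.11 for Serpina1b. In both liver tables all 8 genes passed the filter.

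Serpina6, the corticosteroid carrier, was the only gene of the 8 called on NCD. It was 262, 162, 157 and 293 in KO livers, and 77, 95, 76 and 99 in Ctrl livers. Every KO liver was above every Ctrl liver. Scaled, it averaged 205 ± 67.0 in KO and 92.5 ± 10.1 in Ctrl livers (SD, n = 4 each), and its log2 fold change was 1.09 ± 0.22 (adjusted p = 0.0388, limma), or 2.12-fold. The call rests on all livers together: leaving out any 1 of the 8 other than Ctrl replicate 4 took it past the threshold (adjusted p = 0.0581 to 0.109, log2 fold change 0.93 to 1.23). The count of 1 of 8 called, higher, compares with 6.05% of the 9426 genes tested and 4.2% called as higher. The summed hepatocyte markers, as deposited and before scaling, also did not overlap on NCD, with 67005 to 82126 in KO and 43430 to 56699 in Ctrl livers. Their part in this result was not tested.

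On HFD Serpina6 was 54, 92, 76, 79, 101 and 21 in KO livers, and 107, 53, 119, 82 and 61 in Ctrl livers. These ranges overlapped, and the log2 fold change was -0.27 ± 0.17 (adjusted p = 0.552, limma; 95% interval -0.64 to 0.11). The knockout effect on HFD minus that on NCD was -1.35 ± 0.28 on the log2 scale (adjusted p = 0.0184, from the limma fits), while 7.88% of 5863 genes were called in that comparison. It missed the threshold without NCD Ctrl replicate 3 (-1.27, adjusted p = 0.0577).

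Serpina7, the thyroxine carrier, was low in liver. It was 14, 20, 20 and 25 in NCD KO livers, and 6, 14, 17 and 9 in NCD Ctrl livers. The groups overlapped, and the log2 fold change of 0.62 ± 0.28 was not called (adjusted p = 0.18, limma; interval -0.02 to 1.26). On HFD it was 3 to 34 in KO livers and 4 to 21 in Ctrl livers, with 0.25 ± 0.45 (adjusted p = 0.847).

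Serpina10 had opposite signs on the 2 diets, neither called on its own. On NCD it was 93, 93, 131 and 93 in KO livers, and 93, 164, 157 and 101 in Ctrl livers, with a log2 fold change of -0.49 ± 0.19 (adjusted p = 0.12, limma). On HFD it was 81, 94, 48, 109, 74 and 22 in KO livers, and 34, 31, 56, 36 and 36 in Ctrl livers. After scaling, 5 of the 6 KO livers (50.2 to 105) were above all Ctrl livers (29.6 to 40.1) and KO replicate 3, at 36.5, was within the Ctrl range. The log2 fold change was 0.81 ± 0.23 (adjusted p = 0.194; 95% interval 0.30 to 1.32), and 0.89 without KO replicate 6. The effect on HFD minus that on NCD was 1.30 ± 0.30 (adjusted p = 0.0215, from the limma fits). It missed the threshold without NCD Ctrl column Ctrl-3 (1.19, adjusted p = 0.0547), NCD Ctrl replicate 3 (1.21, adjusted p = 0.0574) or NCD KO replicate 4 (1.25, adjusted p = 0.0536), and with no scaling between libraries (1.03, adjusted p = 0.261).

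By count, 0 of 8 genes were called on HFD, where 0.0507% of 5913 genes were, and 1 of 8, Serpina10, had an unadjusted p below 0.05. In the difference between diets 2 of 8 were called, 1 in each direction, where 2.87% of genes were called with a higher effect on HFD and 5.01% with a lower one. The median log2 fold change of the 8 genes was -0.19 on NCD and -0.18 on HFD, against 0.03 and 0.02 for all genes.

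**Figure D4:**
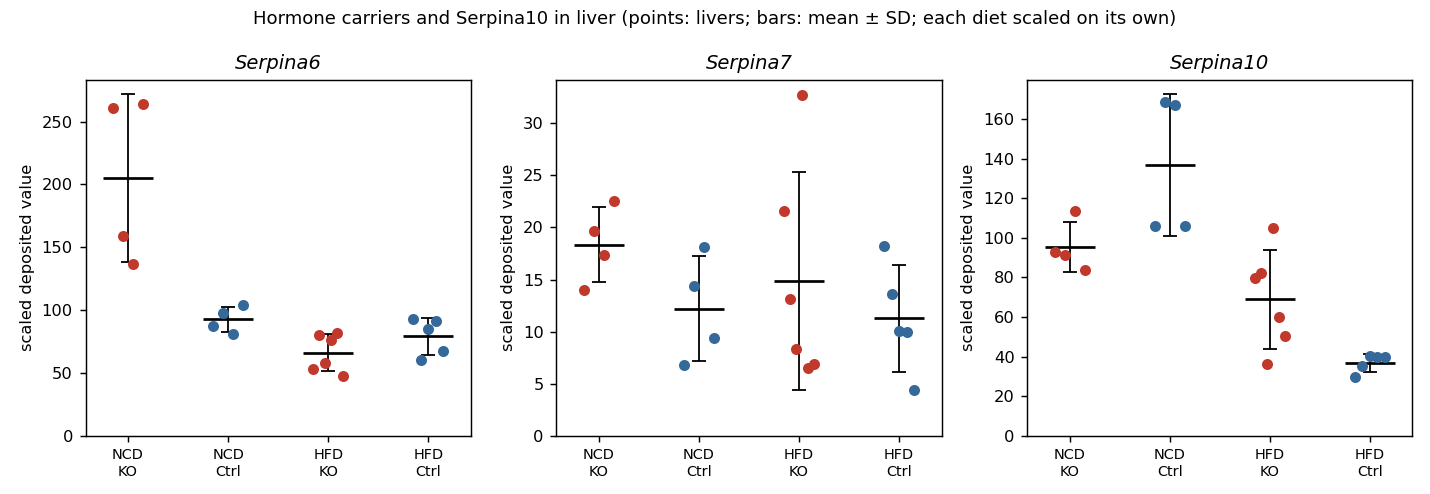
Deposited values divided by the TMM scale factor (vertical axes, linear) of Serpina6, Serpina7 and Serpina10 in KO and Ctrl livers on NCD and HFD, each diet scaled on its own. Points are livers and bars are mean ± SD (n = 4 and 4 on NCD, 6 and 5 on HFD). Serpina6 in NCD KO livers lies above all NCD Ctrl livers.

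**Figure D5:**
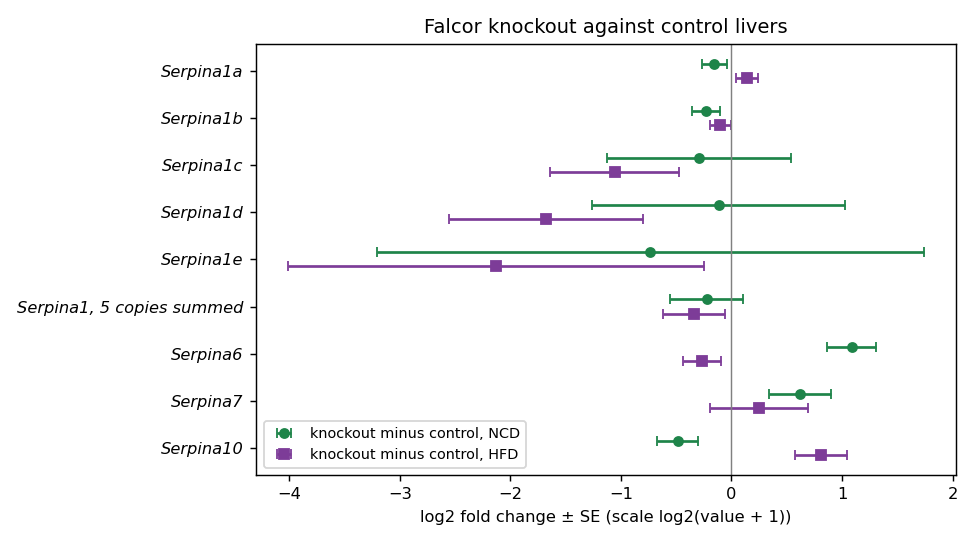
Log2 fold change ± SE of KO over Ctrl livers (horizontal axis, log2(value + 1) scale) for the 8 genes and the summed Serpina1 copies on NCD and HFD. Serpina1a, Serpina6 and Serpina10 have opposite signs on the 2 diets, and the error bars of Serpina1c, Serpina1d and Serpina1e are the widest.

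Few genes of the accompanying lists were called in liver. On NCD no transcription factor of 17 tested, no other clade A serpin of 7, no serpin of another clade of 9 and no protease or partner of 6 was called. Of 16 hormone genes 1 was called, Per1, a clock gene that glucocorticoids induce, which rose by 1.49 ± 0.21 (adjusted p = 0.031, limma). Of 22 secretion genes 2 were called, Sec24a at 0.55 ± 0.11 and Sec23a at 0.47 ± 0.11. On HFD none was called in any list. The share called of all genes was low as well, 6.05% on NCD and 0.0507% on HFD, and the counts show nothing particular to these lists. In the difference between diets, where 7.88% of all genes were called, Per1 (-1.72), Sult1a1 (-0.92), Sec24a (-0.76) and Sec23a (-0.48) had a lower knockout effect on HFD, and Calr (0.69), Os9 (0.46) and Mcfd2 (0.41), which act in folding, disposal and export, a higher one.

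Serpina6 separated KO from Ctrl livers on NCD, so a gene that differs by genotype can have a high r with it there. The genes most like Serpina6 over the 8 NCD livers were Cnn3, Hpgd, Pex3, Acot4 and Arpc3 (r = 0.98 to 0.99). Over the 11 HFD livers they were Macrod1, Pgk1, Immt, Acaa1a and Atp5a1 (r = 0.89 to 0.94), so the 2 diets named no gene in common. For Serpina10 they were Snx12, Mydgf, Ddost, Nbas and Dynll1 on NCD (r = 0.97 to 0.98), and Ctsl, Stat3, Slc41a2, Ahsg and Atxn2l on HFD (r = 0.93 to 0.95). The summed Serpina1 copies were most like Nol7, Tmem9b, Ttc33, Helz and Taf4 on NCD (r = 0.88 to 0.90), with no clade A serpin among them. On HFD they were most like Serpina3k (r = 0.97) and Serpina3m (r = 0.82), serpins of the same clade, followed by Gemin7, Elob and Smim7 (r = 0.77 to 0.80). The livers of a table share its scaling, and HFD KO replicate 6 stands apart in it. On NCD the scaled sum was 14160 in KO replicate 4 and 15510 in the column Ctrl-2, against 6151 to 8164 in the other livers. The likeness to the sum there is thus mostly one to this split. Tmem9b and Ttc33 had the same r (0.8923), as had Helz and Taf4 (0.8766).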

How the data were processed

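Per the labels' protocols, RNA was depleted of ribosomal RNA and made into strand-specific libraries. Kallisto, DESeq2 and the build mm10 appear in the submitters' processing notes, with neither version nor role. The conventional hairpin table holds deposited counts. The other 3 hold deposited whole numbers of unstated unit and depth, treated as a score.

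Counts were tested with edgeR 4.0.16 (quasi-likelihood, filterByExpr, TMM scaling, robust). Deposited scores were divided by TMM factors and log2(value + 1) was fitted with limma 3.58.1 (trend, robust) for genes with a mean of at least 3. All groups of a table shared 1 fit, no fit joined tables, and the difference between diets used the 2 limma estimates with Welch-Satterthwaite degrees of freedom. P-values were adjusted over all genes of a comparison (Benjamini-Hochberg) and called below 0.05. Intervals are 95% intervals. Models were tested on simulated data. DESeq2 1.42.0 was an alternative. Sequences were aligned with MAFFT 7.526.

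In liver, 4 control columns whose bare names also match cell-line labels were assigned to their group and are named by column.

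The members and lists were chosen with earlier results of these data known. Named were the 8 genes, the targeted genes, up to 4 called members of each list with the smallest p (more where needed to account for a small count) with their values in the compared groups, and the 5 genes most like a member. 1 gene of the lists is not reported by name here.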

Additional observations from a re-analysis of the deposited data

Results flagged for a closer look

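In 36 groups of 4 to 6 livers examined (each gene and the summed copies), 8 held a liver set far apart from the rest. These groups are not independent, since Serpina1c, Serpina1d and Serpina1e follow each other and the sum contains them, so the number is not set against chance. All 8 were on NCD and came from the same 2 livers. KO replicate 4 had scaled values of 4197 for Serpina1c, 1417 for Serpina1d, 2319 for Serpina1e and 14160 for the sum. The Ctrl column Ctrl-2 had 3893 for Serpina1c, 1149 for Serpina1d, 4110 for Serpina1e and 15510 for the sum. No HFD group held such a liver. The rule looks for a single liver apart from its nearest neighbour, so it could not flag HFD KO replicates 5 and 6, which were low in Serpina1e together.

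In the inducible lines the hairpin difference in Dox minus that in Restored was -1.63 for Serpina1a, -1.23 for Serpina1b and -1.39 for the sum (log2, adjusted p = 7.77e-07, 5.91e-05 and 2.18e-07, limma). That in Restored minus that in NoDox was 1.72, 1.00 and 1.54 (adjusted p = 2.82e-06, 0.00197 and 4.98e-07). Serpina1b passed the filter on the mean only through the Restored groups. The knockout effect on HFD minus that on NCD was 1.30 for Serpina10 (adjusted p = 0.0215) and -1.35 for Serpina6 (adjusted p = 0.0184).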

How the results depend on the processing

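No called log2 fold change reversed. Of 554 alternative values of the 42 called ones (genes and sums over all comparisons), 536 stayed called in the same direction and 18 did not, and of 590 of the uncalled ones 1 was called and 31 changed sign, among them the summed copies on NCD (0.03 without the column Ctrl-2, 0.29 with the replicate block). Settings in which a gene fell below the filter gave no value and are not among these. In the inducible lines such settings dropped Serpina1a or Serpina1b, and the counts of calls below include that loss. All 110 alternative values of the 11 calls among the conventional hairpins held, DESeq2's Wald test included. With a mean of at least 10 required, neither Serpina1a nor Serpina1b was tested in the inducible lines, so 0 were called in the 9 comparisons that had called 2. Leaving out 1 library gave 1 to 2 calls in the 5 comparisons with shLinc Restored (1 without its replicate 2), 2 to 4 for shZC3H11A against shCtrl, 0 to 1 for NCD and 0 to 2 for the difference between diets. Without scaling between libraries that difference called 1 gene.

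Replicate numbers showed no general pairing of AML12 libraries. Deviations from the group mean had a median correlation of 0.00436 for same and 0.00156 for unlike numbers in the inducible lines. Under the conventional hairpins the medians were 0.0224 and -0.0142. Between shLinc Restored and shLinc Dox, however, replicates 1, 2 and 3 gave 0.274, 0.263 and -0.113. In liver the 2 NCD and 3 HFD pairs with the same replicate number in their titles were positive (medians 0.116 and 0.147, against -0.0739 and -0.0419), too few to tell. On HFD the column names number the livers otherwise. There Ctrl replicates 3, 4 and 5 share column numbers with KO replicates 4, 5 and 6, and these pairs gave -0.307, -0.139 and -0.236. The block fit used the title numbers. With the replicate number as a block, the AML12 calls numbered 28 of 28 in the inducible lines and 11 of 11 under the conventional hairpins, while the NCD count and the difference between diets each came to 0 (Serpina6 on NCD 1.04, adjusted p = 0.231), from the few livers that carry a shared number.

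Depth is unknown outside the conventional table, and rounding limits low values. With copies so alike, values of single copies depend on the authors' assignment of reads.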
